A study of Homo sapiens with 4 samples.

Results

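The unfolded protein and integrated stress genes are 10 genes listed by name, *HSPA5*, *XBP1*, *HERPUD1* and *DNAJB9* for the chaperone and XBP1 arm of the endoplasmic reticulum (ER), and *ATF4*, *DDIT3*, *TRIB3*, *ASNS*, *CHAC1* and *PSAT1* for the ATF4 arm. A row was found for 9 of the 10 genes among the 16811 genes of the deposited table, 4 in the ER arm and 5 in the ATF4 arm, and *CHAC1* was not analysed here. They were compared between MCF12A cells, a non-tumorigenic human mammary epithelial line, in 2 libraries labelled *C1orf132* KO and 2 labelled wild type (WT). In the KO cells, Cas9 and paired guide RNAs had removed the distal promoter p2 of the long noncoding RNA gene *C1orf132*. These edited cells were grown as colonies from single sorted cells, with no statement of how many colonies the libraries came from. All 4 cultures were grown in one medium with horse serum, EGF, hydrocortisone, cholera toxin and insulin. No agent that stresses the ER or deprives cells of amino acids was named for any group.

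The unfolded protein response is set off when unfolded proteins build up in the ER. One sensor, IRE1 (gene *ERN1*), splices the *XBP1* transcript into the form that codes for an active transcription factor, another, ATF6, is cut to release a factor, and both raise ER chaperones and degradation proteins. The third, PERK (gene *EIF2AK3*), belongs with GCN2, PKR and HRI to the kinases that phosphorylate the translation factor eIF2, which lowers protein synthesis in general but favours translation of *ATF4*. That shared branch is the integrated stress response, and it responds to amino acid shortage as well as to ER stress. The ATF4 protein then raises genes of amino acid synthesis and, with longer stress, *DDIT3* (CHOP) and *TRIB3*. Because XBP1 is controlled by splicing and ATF4 by translation, one value per gene shows the transcript level and neither the spliced share nor the protein.

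The 2 arms are read by different DNA elements, and the sites found in the promoters of these genes are shown for that reason. All 10 genes were matched by symbol to a RefSeq table of promoters on GRCh38.p14, the assembly of the build hg38 named for these data. Each window ran from 250 bases before to 50 after the start site listed there. In *ASNS* (97872359 to 97872658) and *TRIB3* (381045 to 381344) this window lay wholly inside the gene span given below. The ER stress response element (ERSE) was searched as CCAAT and CCACG with 9 bases between them, ERSE-II as ATTGG and CCACG with 1 base between them, the XBP1 element as TGACGTGG and the ATF4 element as TGATGNAA, each on both strands. Each line below is read along the strand of the gene, with the fixed letters of the element in capitals and 5 bases on either side.
*HSPA5* (ERSE, minus strand, chr9:125241386-125241414): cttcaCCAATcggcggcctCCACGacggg
*XBP1* (ERSE, minus strand, chr22:28800598-28800626): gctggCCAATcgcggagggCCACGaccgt
*HERPUD1* (ERSE-II, plus strand, chr16:56932020-56932040): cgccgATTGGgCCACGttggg
*HERPUD1* (ATF4 element, plus strand, chr16:56931961-56931978): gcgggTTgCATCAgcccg
*ASNS* (ATF4 element, minus strand, chr7:97872464-97872481): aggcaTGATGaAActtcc
*CHAC1* (ATF4 element, plus strand, chr15:40953257-40953274): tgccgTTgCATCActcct

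The ERSE lay 66 bases before the start in *HSPA5* and 52 bases before it in *XBP1*, counted from the first base of the element. It was found in 2 of the 10 promoters and in 27 of all 35116 promoters of the table (0.0769%). ERSE-II was found in 1 of the 10 and in 0.0541% of all promoters, and the ATF4 element in 3 of the 10, in *HERPUD1* and *CHAC1* on the opposite strand, and in 3.62% of all. The XBP1 element was in 0 of the 10 windows and in 0.729% of all promoters. A match is a string of letters and not a measured binding site, and in *DNAJB9*, *ATF4*, *DDIT3*, *TRIB3* and *PSAT1* none of the 4 strings occurred in this window.

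The deposited values are scaled for transcript length, while their normalization between libraries is not stated in the sources used here. Their sums per library lay between 1444644 and 1655437. RefSeq lists pseudogenes named after *ASNS* (5), *ATF4* (4), *PSAT1* (4), *HSPA5* (1) and *XBP1* (1), 0 of which have a row in the table, so reads shared with such copies could not be told apart. The table holds no counts, but 1032 of 8410 low genes were small whole multiples of a step, so a single read per kb of transcript stood for a value of about 0.104 in edited replicate 1. Relative depths lay between 0.930 (wild-type replicate 1) and 1.12 (edited replicate 2). From these steps, about 4047 to 6990 reads per library stood behind *HSPA5* about 50 to 214 behind *TRIB3* and about 87 to 131 behind *DDIT3*; such numbers are approximate and cover counting error only. The groups were tested with limma on log2(value + 1) over the 9590 genes whose mean reached 10, which took in 7 of the 9 genes. *DNAJB9* and *TRIB3* had lower means and were tested among all 16811 genes. With 2 libraries per group the smallest two-sided p of an exact permutation test is 0.333, so all tests rest on the variance that limma pools over genes, and measure the spread between these libraries. *C1orf132* was not analysed here, and the labels alone give the groups. In what follows, values of a group are given for replicate 1 and then for replicate 2.

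For 0 of the 9 genes did the groups differ past an adjusted p of 0.05 (limma with Benjamini-Hochberg adjustment), and 0 of the 9 had an unadjusted p under 0.05. Among the 9590 tested genes, 7.09% passed the adjusted threshold and 32.3% had an unadjusted p under 0.05, and among all 16811 genes 4.73% passed the adjusted threshold. The adjusted p of the 9 genes ranged from 0.204 to 0.797. Their log2 fold changes were above 0 in 7 genes and below 0 in 2, *DDIT3* and *DNAJB9*. The values of the 2 groups did not overlap in 4 of the 7 genes with a mean of at least 10 (*HERPUD1*, *ATF4*, *DDIT3* and *ASNS*), against 65.1% of all tested genes. Wild-type replicate 2 held the lowest of the 4 values in 6 of the 9 genes, and in 42.2% of the tested genes.

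**Figure D1:**
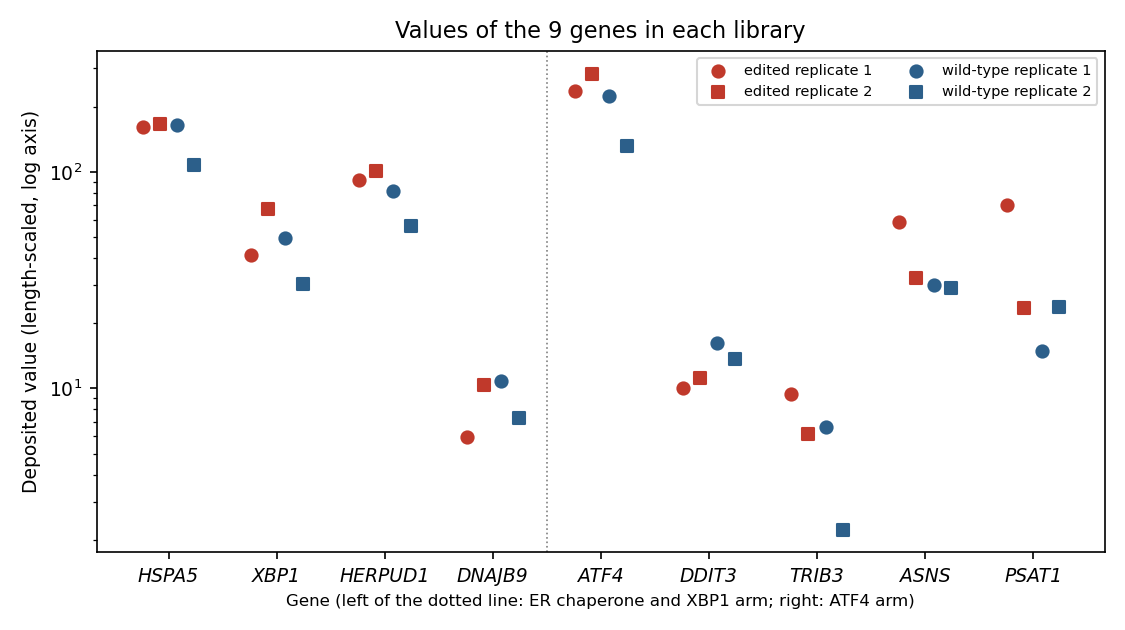
Deposited value (length-scaled, log axis) of the 9 genes in each of the 4 libraries, with edited libraries in red, wild-type libraries in blue, circles for replicate 1 and squares for replicate 2. *PSAT1* and *ASNS* stand out through edited replicate 1 (70.0 and 58.6), while *TRIB3* is lowest in wild-type replicate 2 (2.23).

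In the ER arm, *HSPA5* codes for BiP, the main ER chaperone, which also holds the stress sensors inactive, and lies on chromosome 9 (125234853 to 125241343). Its edited values were 162 and 166, and its wild-type values were 164 and 108. Wild-type replicate 1 lay between both edited libraries, so the groups overlapped, and only wild-type replicate 2 was lower. Edited cells averaged 164 ± 3.01 (SD, n = 2) and wild-type cells 136 ± 39.6 (SD, n = 2), a log2 difference of 0.30 (95% interval -0.34 to 0.94, adjusted p = 0.452, limma). Without wild-type replicate 2 the log2 fold change was 0.00. A further chaperone of the same compartment, *HSP90B1* (GRP94), had values of 1099 and 1257 in edited and 896 and 629 in wild-type libraries, which did not overlap, with a log2 difference of 0.65 (adjusted p = 0.1497, limma). Its promoter holds the ERSE on both strands, shown here because both copies lie in the same window.
*HSP90B1* (plus strand, chr12:103930211-103930239): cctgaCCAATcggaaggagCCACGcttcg
*HSP90B1* (element on the opposite strand, chr12:103930316-103930344): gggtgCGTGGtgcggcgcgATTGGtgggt

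*XBP1*, the transcription factor gene whose transcript IRE1 splices, lies on chromosome 22 (28794560 to 28800569). Edited libraries had values of 41.1 and 67.2, wild-type libraries of 49.5 and 30.4. The groups overlapped, and the replicates differed 1.63-fold within each group, more than the ratio of 1.36 between the group means. The log2 fold change was 0.43 (95% interval -0.40 to 1.26, adjusted p = 0.410, limma).

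*HERPUD1*, an ER membrane protein of the degradation machinery, lies on chromosome 16 (56932142 to 56944864). Its edited values were 91.4 and 101, and its wild-type values 81.1 and 56.3. Both edited libraries were higher than both wild-type libraries, by 1.40-fold in the means, 96.1 ± 6.59 (SD, n = 2) against 68.7 ± 17.5 (SD, n = 2). The log2 fold change of 0.50 had a 95% interval from -0.09 to 1.09 and an adjusted p of 0.204 (limma), the smallest of the 9 genes.

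*DNAJB9* (ERdj4), an ER co-chaperone of BiP, lies on chromosome 7 (108569874 to 108574850). Edited libraries listed it at 5.95 and 10.3 and wild-type libraries at 10.8 and 7.29, from about 137 to 268 reads. No group was higher throughout, and the log2 fold change was -0.16 (95% interval -0.997 to 0.69, adjusted p = 0.797, limma).

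In the ATF4 arm, *ATF4* itself, on chromosome 22 (39520559 to 39522686), had the highest values of the 9 genes, with edited values of 236 and 284 and wild-type values of 224 and 131. The groups did not overlap, but edited replicate 1 and wild-type replicate 1 lay close together. The means were 260 ± 33.9 (SD, n = 2) and 178 ± 66.0 (SD, n = 2), a ratio of 1.46, with a log2 fold change of 0.59 (95% interval -0.17 to 1.36, adjusted p = 0.238, limma).

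*DDIT3*, which codes for CHOP, a transcription factor that promotes cell death under lasting stress, lies on chromosome 12 (57516588 to 57520517). Edited libraries had values of 10.1 and 11.2, wild-type libraries of 16.3 and 13.7. Both edited libraries were lower than both wild-type libraries, and the replicates differed 1.11-fold and 1.19-fold, with means of 10.6 ± 0.756 (SD, n = 2) against 15.0 ± 1.79 (SD, n = 2). The log2 fold change was -0.46 (95% interval -0.999 to 0.09, adjusted p = 0.210, limma). In RefSeq its span overlaps that of *MARS1* on the opposite strand by 65 bases at the ends and shares 2769 bases with another annotated locus on its own strand, so reads of *DDIT3* and that locus could not be told apart there.

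*TRIB3*, a pseudokinase that is raised by ATF4 and CHOP and restrains ATF4, lies on chromosome 20 (380760 to 397559). Edited libraries listed it at 9.46 and 6.16 and wild-type libraries at 6.65 and 2.23. The wild-type replicates differed 2.98-fold and the groups overlapped. Its log2 fold change was 0.80, with an interval from -0.38 to 1.98 (adjusted p = 0.311, limma).

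*ASNS* codes for asparagine synthetase, a classical ATF4 target in amino acid shortage, and lies on chromosome 7 (97851677 to 97928441). RefSeq lists a long noncoding RNA, *CZ1P-ASNS*, that overlaps its span by 76325 bases on the same strand and has no row in the table, so reads of the pair could not be told apart. Its edited values were 58.6 for replicate 1 and 32.3 for replicate 2, beside wild-type values of 30.03 and 29.1. Edited replicate 2 was therefore close to the wild-type libraries, and edited replicate 1 stood apart. The log2 fold change over all libraries was 0.54 (95% interval -0.19 to 1.28, adjusted p = 0.257, limma). Without edited replicate 2 it was 0.96 and passed the threshold (adjusted p = 0.0356, with a range of 0.0356 to 0.814 over the alternatives), and without edited replicate 1 it was 0.12.

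*PSAT1*, the aminotransferase of serine synthesis, lies on chromosome 9 (78297125 to 78330093). It showed the same pattern over the libraries, with 70.0 in edited replicate 1 and 23.4 in edited replicate 2, beside wild-type values of 14.9 and 23.8. Edited replicate 2 fell within the wild-type range, and the edited replicates differed 2.99-fold, more than the ratio of 2.42 between the group means. Its log2 fold change of 1.07 was the largest of the 9 genes and had the widest interval, -0.23 to 2.37 (adjusted p = 0.216, limma). Without edited replicate 2 it was 1.84 and passed the threshold (adjusted p = 0.00791, with a range of 0.00791 to 0.645 over the alternatives), and without edited replicate 1 it was 0.30. The other enzymes of serine synthesis are given beside it, a choice made after their values were seen, and edited replicate 1 was not above both wild-type libraries in *PHGDH*. *PHGDH* had values of 16.2 and 6.26 in edited and 9.03 and 19.6 in wild-type libraries, and *PSPH* 77.1 and 48.0 in edited and 57.1 and 64.1 in wild-type libraries.

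**Figure D2:**
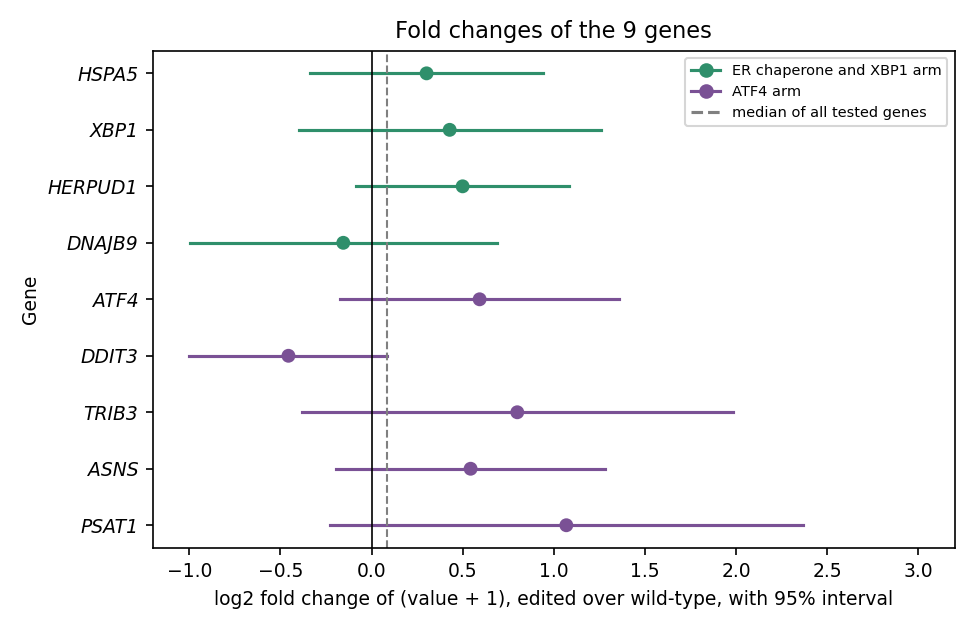
log2 fold change of (value + 1) in edited over wild-type cells with its 95% interval from limma, for the 4 genes of the ER arm (green) and the 5 of the ATF4 arm (purple), beside the median of all tested genes (dashed, 0.09). All 9 intervals include 0, and the largest fold change, 1.07 for *PSAT1*, has the widest interval.

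Set against each other, the median log2 fold change was 0.37 in the ER arm (from -0.16 to 0.50) and 0.59 in the ATF4 arm (from -0.46 to 1.07), beside 0.09 over all tested genes and 0.01 over all genes without the filter. The difference of 0.23 between the arms was smaller than the spread between replicates of one group, with a pooled SD of 0.57. It also changed direction with the edited library. Against wild-type replicates 1 and 2, edited replicate 1 gave ATF4 arm medians of 0.45 and 0.98 and ER arm medians of -0.14 and 0.50. Edited replicate 2 gave ATF4 arm medians of 0.10 and 0.15 and ER arm medians of 0.16 and 0.72. The ATF4 arm was thus above the ER arm in both pairs with edited replicate 1, by 0.59 and 0.48, and below it in both pairs with edited replicate 2, by -0.06 and -0.58.

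**Figure D3:**
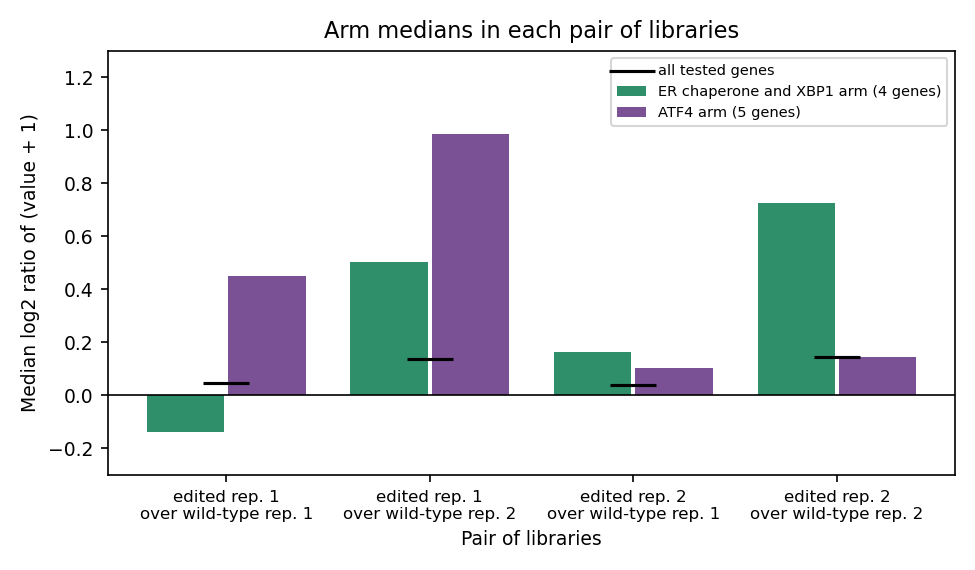
Median log2 ratio of (value + 1) over the genes of each arm in each of the 4 pairs of an edited and a wild-type library (bars), with the median of all tested genes as a black line. The ATF4 arm is the higher bar in the pairs with edited replicate 1 (0.45 and 0.98) and the lower one in those with edited replicate 2 (0.10 and 0.15).

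Within a library the comparison of the arms does not depend on the scaling between libraries, apart from the pseudocount. The mean of log2(value + 1) over the ATF4 arm less that over the ER arm came to -0.16 and -1.06 in the edited libraries and to -0.97 and -0.72 in those of wild-type cells. Edited replicate 1 therefore stood above the other 3 libraries, and edited replicate 2 below both wild-type libraries.

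Since the values are scaled for length, levels can be set beside each other. In wild-type cells *ATF4* (178) was followed by *HSPA5* (136), *HERPUD1* (68.7), *XBP1* (40.0), *ASNS* (29.6), *PSAT1* (19.3), *DDIT3* (15.0), *DNAJB9* (9.04) and *TRIB3* (4.44). Of these neighbours, *ATF4* and *HSPA5*, and *PSAT1* and *DDIT3*, had overlapping values. Within each wild-type library *ATF4* was still above *HSPA5* (224 against 164, and 131 against 108). *PSAT1* and *DDIT3* changed places between the libraries. In edited cells the order was the same, except that *PSAT1* (46.7) stood before *ASNS* (45.4). There, *XBP1* and *PSAT1*, *PSAT1* and *ASNS*, *DDIT3* and *DNAJB9*, and *DNAJB9* and *TRIB3* overlapped. Within each edited library *DDIT3* was still above *DNAJB9* (10.1 against 5.95, and 11.2 against 10.3). The other overlapping pairs changed places between the edited libraries.

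Of 17 genes upstream of both arms, for stress sensors, eIF2 kinases and control of eIF2, 0 passed an adjusted p of 0.05 (limma) and 4 had an unadjusted p under 0.05, with a median log2 fold change of 0.16. Over all tested genes these shares were 7.09% and 32.3%. With a mean of at least 50 as the filter, 1 gene of this list passed. The 4 genes, named after their values were seen, were *EIF2AK3*, with lower edited values, and *EIF2B1*, *EIF2B3* and *EIF2B4*, subunits of the exchange factor that phosphorylated eIF2 inhibits, with higher ones. *EIF2B3* had the largest fold change and the smallest p of the list, with edited values of 110 and 75.6 beside 44.5 and 38.8 in wild-type cells (a log2 difference of 1.12, adjusted p = 0.0521, limma). *EIF2AK3* (PERK) had values of 12.6 and 11.7 in edited and 19.8 and 18.0 in wild-type libraries, which did not overlap (log2 fold change -0.59, adjusted p = 0.106). *EIF2AK4* (GCN2), the sensor of amino acid shortage, was at 36.6 and 32.6 in edited and 45.3 and 43.0 in wild-type libraries (-0.35, adjusted p = 0.215). The fold changes of the other kinases were small, -0.15 for *EIF2AK1* (HRI) and -0.07 for *EIF2AK2* (PKR). *ATF6* (-0.15), *ERN1* (-0.13), *EIF2S1* (0.23), which codes for the phosphorylated subunit of eIF2, and the phosphatase subunits *PPP1R15A* (0.16) and *PPP1R15B* (0.19) did not pass either. The promoter window of *PPP1R15B* holds the ATF4 element.

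ER chaperones and folding enzymes outside the 9 genes held more calls. Of 18 genes, 3 were higher and 1 lower in edited cells at an adjusted p under 0.05 (limma), and 14 did not pass. Of all tested genes, 2.89% were called higher and 4.2% lower, and 32.3% had an unadjusted p under 0.05. An unadjusted p under 0.05 was found for 10 of the 18 genes, and their median log2 fold change was 0.52. *HYOU1*, an ER chaperone that acts as an exchange factor for BiP, rose from 36.4 and 27.7 in wild-type to 66.7 and 74.7 in edited libraries (log2 fold change 1.13, adjusted p = 0.0400). *SDF2L1*, a partner of BiP, rose from 23.7 and 16.6 to 53.4 and 41.4 (1.21, adjusted p = 0.0470). *TXNDC5*, a protein disulfide isomerase, rose from 86.8 and 66.1 to 157 and 156 (1.04, adjusted p = 0.0487). The call of *HYOU1* ended in 5 of 14 alternatives. That of *SDF2L1* ended in 8 of 13, among them quantile normalization (adjusted p = 0.0501, limma). The call of *TXNDC5* ended in 9 of 14, among them cyclic loess normalization (adjusted p = 0.0507, limma). *ERO1A*, the oxidase that recharges protein disulfide isomerase, fell from 233 and 239 to 102 and 113 (-1.13, adjusted p = 0.0355), a call that ended in 5 of 14 alternatives. The promoter windows of *TXNDC5* and *ERO1A* hold none of the strings searched. Those of *HYOU1* and *SDF2L1* hold ERSE-II on the opposite strand, in *HYOU1* at 2 places, the more distal of which overlaps an XBP1 element.
*HYOU1* (minus strand, chr11:119057375-119057395): cgtgaCGTGGtCCAATcccag
*HYOU1* (minus strand, chr11:119057269-119057289): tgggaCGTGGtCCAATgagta
*SDF2L1* (plus strand, chr22:21642109-21642129): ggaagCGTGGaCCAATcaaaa

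Of 22 genes of ER-associated degradation and protein translocation, 0 passed an adjusted p of 0.05 (limma) and 6 had an unadjusted p under 0.05, with a median log2 fold change of 0.31. Among all tested genes, 7.09% passed and 32.3% had an unadjusted p under 0.05. Of 15 transcription factors and feedback genes of the integrated stress response, 1 was higher, 1 lower and 13 did not pass, 7 had an unadjusted p under 0.05, and the median was -0.24. *ATF5*, a factor translated under eIF2 phosphorylation like ATF4, rose from 11.5 and 8.39 in wild-type to 32.3 and 25.2 in edited libraries (log2 fold change 1.45, adjusted p = 0.0347, limma). The call of *ATF5* ended in 5 of 13 alternatives. *ATF3*, an early stress factor downstream of ATF4 that other stimuli raise too, fell from 26.1 and 31.3 to 5.32 and 5.48 (-2.21, adjusted p = 0.0103, limma). Its call ended in 3 of 13 alternatives. The promoter window of *ATF3* holds the ATF4 element, and that of *ATF5* holds none of the strings searched. *DDIT4*, an inhibitor of mTOR signalling, was at 853 and 410 in edited and 421 and 932 in wild-type libraries, so the replicates differed more than the groups (-0.08, adjusted p = 0.924).

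Among the genes that supply amino acids, 14 genes of amino acid and serine-glycine synthesis gave 0 higher and 1 lower call and 6 genes with an unadjusted p under 0.05, with a median log2 fold change of 0.33. The gene that fell was *PCK2*, the mitochondrial form of phosphoenolpyruvate carboxykinase and an ATF4 target. It went from 40.1 and 34.4 in wild-type to 15.8 and 16.5 in edited libraries (-1.15, adjusted p = 0.0284, limma). The call of *PCK2* ended in 5 of 13 alternatives. Of 10 amino acid transporters, 0 passed the adjusted threshold and 1 had an unadjusted p under 0.05 (limma), with a median of 0.19. Of 19 cytosolic aminoacyl-tRNA synthetases, which charge tRNAs and many of which are ATF4 targets, 1 was higher and 18 did not pass. An unadjusted p under 0.05 (limma) was found for 11 of them, and the list median was 0.63, beside 0.09 over all tested genes. Of all tested genes, 2.89% were called higher and 4.2% lower, and 32.3% had an unadjusted p under 0.05. *HARS*, the histidine enzyme, rose from 92.2 and 86.4 to 231 and 165 (1.12, adjusted p = 0.0494). This only call of the list ended under all 3 other scalings (adjusted p = 0.0513, 0.0523 and 0.0608, limma) and in 11 of 14 alternatives in all, over which the adjusted p ranged from 0.0155 to 0.259.

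Cytosolic heat shock genes, which belong to a stress response outside the ER, gave 1 higher and 1 lower call among 10 genes, of which 5 had an unadjusted p under 0.05. An unadjusted p that low was found for 32.3% of all tested genes. *HSPA8*, the constitutive cytosolic HSP70, rose from 2414 and 1286 in wild-type to 5778 and 5501 in edited libraries (log2 fold change 1.68, adjusted p = 0.0461, limma). *HSPB1* (HSP27) fell from 2530 and 3668 to 558 and 621 (-2.37, adjusted p = 0.0132, limma). The call of *HSPA8* ended in 6 of 14 alternatives and that of *HSPB1* in 3 of 14. None of the strings searched lay in the promoter windows of *HSPA8*, *HSPB1*, *PCK2* and *HARS*. Over the 8 lists, 6 genes were higher and 4 lower in edited cells and 115 of 125 did not pass. The 10 calls came from the 113 of them with a mean of at least 10. Among all 9590 genes tested at that mean, 2.89% were called higher and 4.2% lower. The 12 genes of the lists under a mean of 10 were tested among all 16811 genes, of which 1.33% were called higher and 3.4% lower, and none of them is among the 10 called. Leaving out either wild-type library, replicate 1 or replicate 2, 0 of the 10 genes passed the adjusted threshold, and without edited replicate 1 3 of them did, while all 10 passed without edited replicate 2. The log2 fold changes of the 10 genes kept their direction in each of these fits, at -2.34 and -2.08 for *ATF3*, -2.64 and -2.10 for *HSPB1* and 2.13 and 1.22 for *HSPA8* when wild-type replicate 1 or 2, respectively, was left out.

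**Figure D4:**
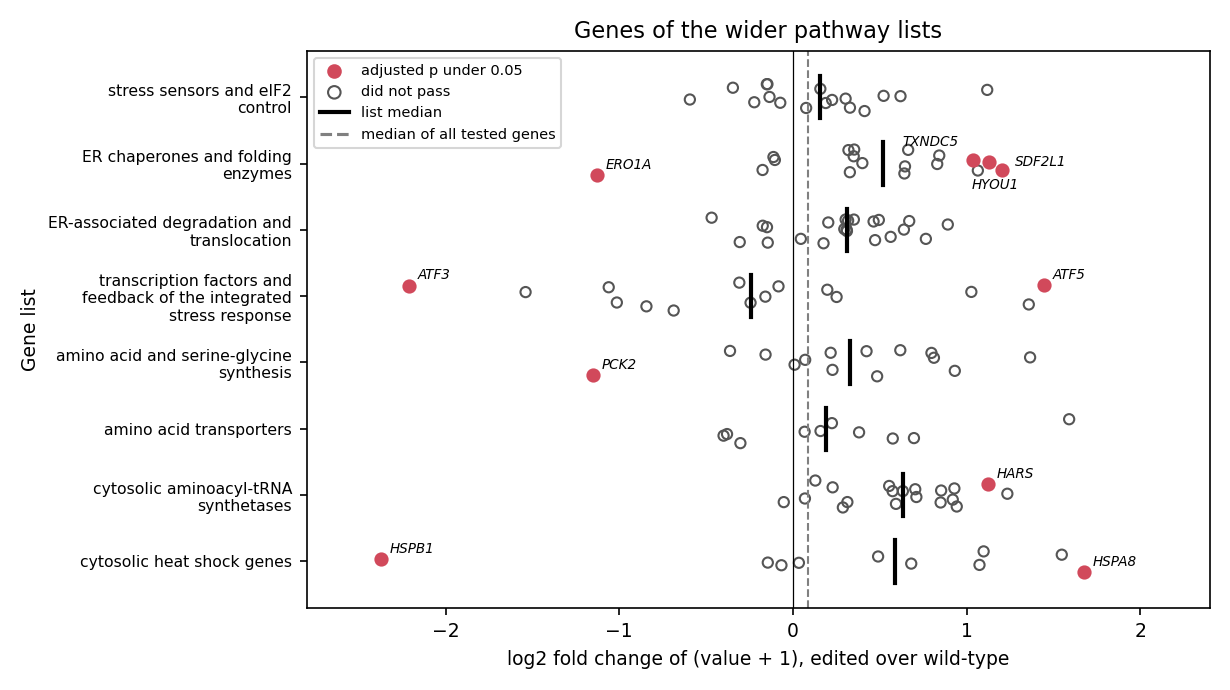
log2 fold change of (value + 1) in edited over wild-type cells for the 125 genes of 8 pathway lists, one circle per gene, filled red where the adjusted p was under 0.05, with the list medians (black lines) and the median of all tested genes (dashed, 0.09). The called genes lie on both sides of 0, from *HSPB1* at -2.37 to *HSPA8* at 1.68, and most circles of the 8 lists are open.

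Chromosome medians differed between edited and wild-type cells, and some of these genes lie on chromosomes that stood apart. The median log2 fold change was -0.46 over 312 tested genes of chromosome 14, which holds *ERO1A* and *PCK2*, and 0.36 over 417 genes of chromosome 5, which holds *HARS*. Less these medians, *ERO1A* was at -0.67, *PCK2* at -0.70 and *HARS* at 0.77. Of the 9 genes, *HSPA5* and *PSAT1* lie on chromosome 9 (median -0.18) and *DNAJB9* and *ASNS* on chromosome 7 (median -0.19). Less the chromosome median, these 4 were at 0.48, 1.25, 0.03 and 0.73. The remaining genes lie on chromosomes with medians above 0, so their values became lower. *HERPUD1* (chromosome 16, median 0.27) went from 0.50 to 0.23. *XBP1* and *ATF4* (chromosome 22, median 0.24) went from 0.43 to 0.19 and from 0.59 to 0.35. *TRIB3* (chromosome 20, median 0.22) went from 0.80 to 0.58 and *DDIT3* (chromosome 12, median 0.14) from -0.46 to -0.59. The part of the chromosomes in these values was not tested.

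The epithelial markers fixed for these cells were all in the table, 10 of 10, and 5 of them were lower and 1 higher in edited cells at an adjusted p under 0.05 (limma). Their summed value was 4911 and 5695 in edited and 11259 and 20423 in wild-type libraries, and *CDH1* (E-cadherin) was at 3.89 and 1.54 in edited and 150 and 123 in wild-type libraries. The marker called higher was *KRT8*, at 378 and 365 in edited and 194 and 175 in wild-type libraries. *KRT18* also had a higher mean in edited cells, but its groups overlapped. Of 7 mesenchymal or fibroblast markers 4 were in the table, with 2 higher and 1 lower call in edited cells and summed values of 1004 and 4961 against 918 and 537. *VIM* (824 and 1215 against 257 and 194) and *ZEB1* were called higher and *COL1A1* lower. *FN1*, which was not called (adjusted p = 0.707, limma), made up most of the 4961. It was at 171 and 3735 in edited and 645 and 314 in wild-type libraries. Of the endothelial markers 0 of 3 were in the table, and of the blood cell markers 1 of 3, *CD68*, at 32.7 and 49.1 in edited and 39.8 and 37.5 in wild-type libraries. These are bulk samples, in which fewer cells of a type and less RNA per cell cannot be told apart, and the part of this difference in the values of the stress genes was not tested.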

How the data were processed

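The authors sequenced poly(A)-selected RNA as single-end reads (75 bases). The submitters' processing notes name Salmon, HISAT2 and the build hg38, without versions or roles. The authors deposited 1 normalized value per gene and library, an expression signal whose normalization is not given in the sources used here. The signal is scaled for length, since the step of low genes times transcript length was nearly constant over 159 genes with a single transcript (quartiles 0.101 and 0.114 per kb, GENCODE version 44 lengths). Whole reads were recovered for 1032 of 8410 low genes (tolerance 0.06%), too few for count tests.

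The groups were tested in R 4.3.3 with the limma package, version 3.58.1 (lmFit, eBayes with trend), on log2(value + 1), with a mean of at least 10, Benjamini-Hochberg adjustment over all tested genes and a threshold of 0.05. The paper's threshold of 0.001 was an alternative. Such fold changes understate the change of low genes. The fit was tested on simulated data. Positions are those of RefSeq on GRCh38.p14, which placed 8952 of 9590 tested genes. Older symbols were matched through the same table. The genes and lists were chosen with earlier results of these data known. Named are the 10 genes, 12 fixed regulators and targets, and in each list up to 3 called genes per direction. Alternatives in pseudocount, filter, scaling, trend, replicate block, chromosome median and libraries were computed. Python 3.11.15 was used.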

Additional observations from a re-analysis of the deposited data

How the results depend on the processing

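With the settings as reported, 680 genes, 0 of the 9 stress genes and 10 genes of the 8 lists passed an adjusted p of 0.05 (limma). The 0 for the 9 genes held under pseudocounts of 0.1 and 5, no filter, the 3 other scalings, no variance trend and the replicate block, and 1 of the 9 had an unadjusted p under 0.05 with equal library totals and 0 in the others. The count over all genes was 419 with a mean of at least 50 and 1 at an adjusted p under 0.001, where 0 list genes passed. The filter at 50 left 3 of the 9 genes to test (*HSPA5*, *HERPUD1* and *ATF4*), 0 of which passed. With no filter, 5 list genes passed. Leaving out each library in turn gave 4 to 1559 genes, 0 to 2 of the 9 stress genes (the 2 without edited replicate 2) and 0 to 26 list genes. Only 4 genes passed without wild-type replicate 2, 16 without wild-type replicate 1, 486 without edited replicate 1 and 1559 without edited replicate 2. The lone library of a group was then assumed to vary like the others, and the cause of these shifts was not tested. With the replicate number as a block, 133 genes, 2 list genes and 0 of the 9 passed. The numbers mark no shared batch in the labels, and deviations of same-numbered libraries had r = -0.14 over 9590 genes. A crossed pairing, chosen after seeing the data, gave 1002 genes and 0 of the 9 stress genes. With it, 1 of the 9 had an unadjusted p under 0.05, and their smallest adjusted p was 0.0503 (limma). Without each library in turn, the ER arm median ran from 0.04 to 0.68 and the ATF4 arm median from 0.21 to 0.96. Their difference ranged from -0.15, without edited replicate 1, to 0.78, without edited replicate 2. Under the other alternatives run for the arms, the filters not among these, the difference lay between 0.15 and 0.37. The spread between replicates comes from the same 4 libraries and is no separate measure of these shifts. Equal library totals moved the median of all tested genes from 0.09 to -0.03, and 7 of the 9 genes lay above that median under each scaling. The sign of *DNAJB9* changed in 3 of 13 alternatives. The depth limits *TRIB3* and *DDIT3* most, with about 50 and 87 reads in their lowest libraries.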
